A study of Mus musculus with 12 samples.

Results

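The genes examined here were *Slc38a4* and 9 other carriers of amino acids across the plasma membrane, *Slc38a1*, *Slc38a2*, *Slc7a1*, *Slc7a5*, *Slc3a2*, *Slc7a10*, *Slc7a11*, *Slc1a4* and *Slc1a5*. All 10 were found by symbol among the 43432 genes of the count table, and all 10 passed the filter on low counts, as did 17257 genes in all. *Slc38a4* was chosen by its levels in these libraries, as the centre of the group with its differences between the 3 groups of mice known, and the other 9 were listed by function with results of these libraries in view. Which comparison counted in that choice is not recorded, so the differences of the 10 genes between groups are given as descriptions in all 3 comparisons. No p-value is given for a member, and counts of members called are printed beside the share over all genes without anything being read from them.

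RNA came from sciatic nerves of mice aged 1 month, with 1 library per mouse and 4 mice in each of 3 groups of 3 males and 1 female. WT control mice (*Mtmr2* wt/wt) and *Mtmr2* KO mice (*Mtmr2* -/-) carry treatment "none" in the labels, although the study's text also calls the *Mtmr2* KO group vehicle treated, and niacin-treated *Mtmr2* KO mice (*Mtmr2* -/-) were given niacin from day 10 to day 30. The dose was 120 mg/kg by intraperitoneal injection until day 21, followed by gavage of Niacin-SR, a slow release form. All mice were of the 129/SvPas strain, and the KO is a null model not limited to 1 cell type, used for the demyelinating neuropathy CMT4B1. Whether the *Mtmr2* KO mice received a vehicle is not settled by these sources. No library came from WT mice given niacin, so an effect of niacin outside the *Mtmr2* KO background cannot be read from these libraries.

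Amino acids enter cells through families of solute carriers that differ in what they accept and in whether they use the sodium gradient or exchange one amino acid for another. The Slc38 family takes up small neutral amino acids such as alanine and glutamine together with sodium. *Slc7a5* (LAT1), *Slc7a10* (Asc-1) and *Slc7a11* (xCT) encode light chains that reach the membrane only when bound to the heavy chain 4F2hc, the product of *Slc3a2*, and their exchange supplies large neutral amino acids, small neutral amino acids and cystine, respectively. Peripheral nerve needs this supply for the proteins and lipids of myelin, and the blood vessels of the nerve carry LAT1 at the barrier to the endoneurium.

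The libraries held 20763951 to 33191106 counts on genes. Levels are given as CPM (counts scaled to a common library total), with TMM factors that adjust for differences in composition between libraries. *Mtmr2* itself was at 128 to 161 CPM in WT control and at 66.7 to 73.4 CPM in niacin-treated *Mtmr2* KO libraries, and the libraries labelled *Mtmr2* KO 4501, 4502 and 4504 had 71.5, 84.6 and 69.4 CPM. The library labelled *Mtmr2* KO 4503 had 143 CPM, within the WT control range, so several log2 fold changes are also given without it. Ranges, ratios between genes and marker sums of *Mtmr2* KO include it. Defining genes of myelinating Schwann cells (7 genes) summed to 89283 to 113176 CPM in WT control, 85072 to 117797 CPM in *Mtmr2* KO and 61833 to 101787 CPM in niacin-treated libraries. All 7 had a lower fitted level in niacin-treated *Mtmr2* KO than in *Mtmr2* KO (median log2 fold change −0.53). Of the 7, edgeR called 0 (3 at an unadjusted p under 0.05), DESeq2 on all libraries 1, beside 5.88% of all genes, and limma-voom 4, beside 11.6%. The part of this shift in the carrier levels was not tested. Skeletal muscle genes stood apart in the niacin-treated libraries 4506 and 4507, where 8 genes summed to 2799 and 2819 CPM, against 9.95 to 90.3 CPM in the other 10 libraries. In bulk nerve, fewer cells of a type and less RNA per cell cannot be told apart.

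The 3 Slc38 genes lie next to each other on the minus strand of mouse chromosome 15. In GRCm38 with the GENCODE M21 annotation *Slc38a4* spans chr15:96994820-97055956, *Slc38a2* chr15:96687392-96699730 and *Slc38a1* chr15:96571418-96642913. *Slc38a1* and *Slc38a2* are 44478 bases apart, and *Slc38a2* and *Slc38a4* are 295089 bases apart with no protein-coding gene between them. The other members lie on 6 further chromosomes, with *Slc7a10* (chr7:35186385-35201114) and *Slc1a5* (chr7:16781340-16798274) both on chromosome 7. An annotated gene on the opposite strand overlaps *Slc7a5* (*Gm20388*), *Slc7a10* (*Lrp3*) and *Slc7a11* (the antisense gene *Gm37854*), and with the strand setting of the counting not given, reads of the partners could not be told apart.

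Sequences before the start sites are shown for *Slc38a4*, the member whose groups did not overlap in any of the 3 comparisons, and for the 2 members whose promoter window held the core of the amino acid response element, the site through which ATF4 acts on carrier genes when amino acids are scarce. RefSeq start sites on GRCm38.p6 gave a window (250 bases before to 50 after the start) for 7 of the 10 members, without *Slc38a1*, *Slc7a5* and *Slc1a5*. The 250 bases before the first start of *Slc38a4* (chr15:97055957-97056206, minus strand, CG dinucleotides in capitals) held 3 CG dinucleotides. In the stretches of *Slc7a11* (chr3:50443614-50443733, minus strand) and *Slc1a4* (chr11:20332704-20332823, minus strand, ending 10 bases into the transcript) capitals mark matches to TGATGNAA on either strand.
Slc38a4: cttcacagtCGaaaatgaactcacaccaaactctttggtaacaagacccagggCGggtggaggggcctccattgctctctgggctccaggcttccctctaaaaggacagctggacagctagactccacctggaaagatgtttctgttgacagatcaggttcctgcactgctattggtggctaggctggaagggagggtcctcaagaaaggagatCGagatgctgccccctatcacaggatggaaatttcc
Slc7a11: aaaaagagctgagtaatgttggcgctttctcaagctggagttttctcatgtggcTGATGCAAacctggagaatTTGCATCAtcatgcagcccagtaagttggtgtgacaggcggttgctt
Slc1a4: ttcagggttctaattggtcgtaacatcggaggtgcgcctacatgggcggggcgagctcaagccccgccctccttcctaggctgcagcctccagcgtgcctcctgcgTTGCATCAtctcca

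The matches in *Slc7a11* began 66 bases before the start on the forward strand and 47 bases before it on the reverse strand, and the match in *Slc1a4* began 4 bases before the start on the reverse strand. TGATGNAA was found in 3.97% of the 32851 promoter windows of the table. The core of the antioxidant response element, TGACNNNGC, was found in 1 window each of *Slc38a2* and *Slc7a1*, and in 12.4% of all windows. None of the 3 windows of *Slc38a4* held either motif. These windows of *Slc38a4* had 5 CG dinucleotides each, against a median of 7 over all windows and 41 in the window of its neighbour *Slc38a2*.

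*Slc38a4* encodes SNAT4, a carrier of neutral and cationic amino acids that is imprinted in the mouse and expressed from the paternal copy. It was lower in *Mtmr2* KO nerves than in WT control and higher in niacin-treated *Mtmr2* KO nerves than in either. In WT control libraries 4497, 4498, 4499 and 4500 its level was 10.5, 11.7, 10.9 and 11.3 CPM. In *Mtmr2* KO libraries 4501, 4502, 4503 and 4504 it was 7.79, 8.24, 7.23 and 8.46 CPM, and in niacin-treated libraries 4505, 4506, 4507 and 4508 it was 19.2, 15.5, 17.8 and 13.9 CPM. The 3 groups did not overlap. Their means were 11.1 ± 0.499, 7.93 ± 0.540 and 16.6 ± 2.34 CPM (SD, n = 4 each). The log2 fold change was −0.49 (SE 0.13) for *Mtmr2* KO against WT control, 1.06 (SE 0.13) for niacin-treated *Mtmr2* KO against *Mtmr2* KO, and 0.58 (SE 0.13) for niacin-treated *Mtmr2* KO against WT control. As folds, these were 1.40-fold lower, 2.09-fold higher and 1.49-fold higher. Counts behind these values were 176 to 392 reads per library.

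The spread of *Slc38a4* within groups was small, with a highest to lowest library ratio of 1.11, 1.17 and 1.38 in WT control, *Mtmr2* KO and niacin-treated libraries, respectively. Leaving out each of the 12 libraries in turn kept the log2 fold change between −0.53 and −0.45, between 0.99 and 1.14, and between 0.50 and 0.65 in the same order of comparisons. Without the library labelled *Mtmr2* KO 4503 the values were −0.45 and 1.02 in the comparisons that use it. Without the niacin-treated libraries 4506 and 4507, those with skeletal muscle genes, the niacin differences were 1.06 against *Mtmr2* KO and 0.55 against WT control. In the niacin-treated libraries 4505 and 4508, where the 8 muscle genes summed to 54.2 and 90.3 CPM, *Slc38a4* was at 19.2 and 13.9 CPM. The part of muscle RNA in the *Slc38a4* level was not tested.

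**Figure D1:**
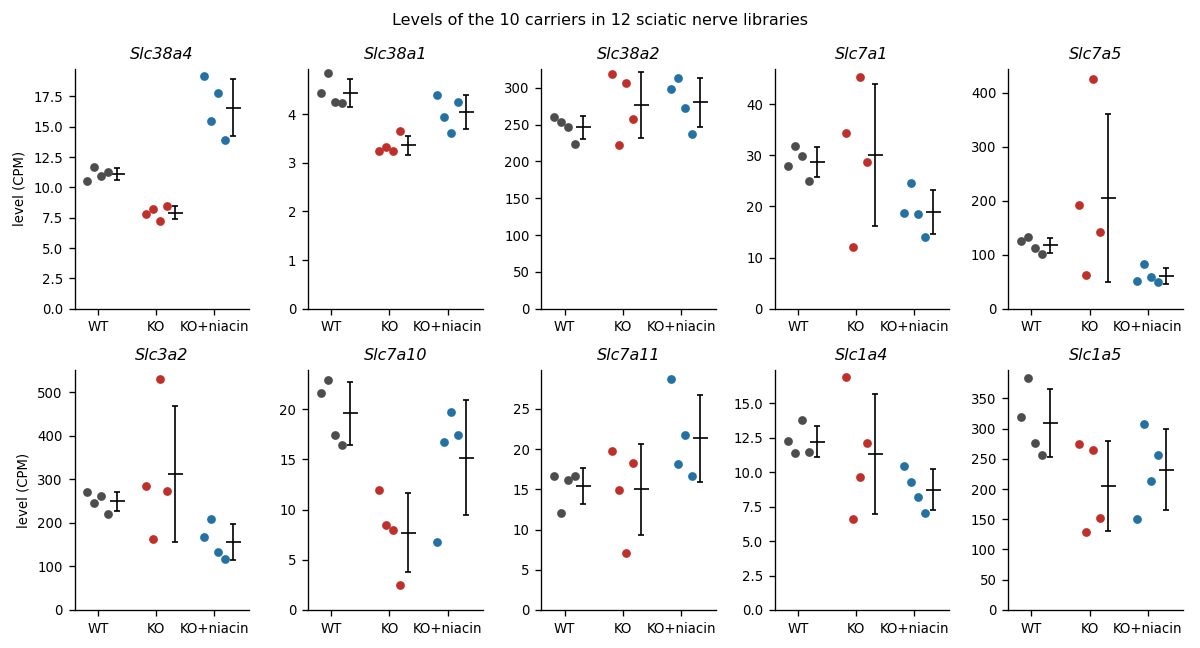
Level of each carrier (CPM, axes from 0) in the 12 libraries, 1 point per library, for WT control (WT), Mtmr2 KO (KO) and niacin-treated Mtmr2 KO (KO+niacin), with the mean and SD beside the points. The 3 groups of Slc38a4 are apart, at 10.5 to 11.7, 7.23 to 8.46 and 13.9 to 19.2 CPM, while the KO points of Slc7a5 run from 62.9 to 426 CPM.

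*Slc38a1* (SNAT1), a sodium-coupled carrier of glutamine and alanine, was the least abundant member. It was at 4.43, 4.85, 4.24 and 4.23 CPM in WT control, 3.24, 3.31, 3.23 and 3.65 CPM in *Mtmr2* KO and 4.40, 3.94, 3.61 and 4.24 CPM in niacin-treated libraries. *Mtmr2* KO libraries all lay below WT control, with a log2 fold change of −0.40 (SE 0.15), while niacin-treated libraries overlapped both other groups, at 0.27 (SE 0.15) against *Mtmr2* KO and −0.13 (SE 0.15) against WT control. These levels rest on 74 to 135 reads per library.

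*Slc38a2* (SNAT2), the carrier of the family that cells induce when amino acids run short, had higher levels per length than both others of its family in all 3 groups. Its levels were 261, 253, 247 and 224 CPM in WT control, 319, 223, 306 and 258 CPM in *Mtmr2* KO and 298, 314, 272 and 237 CPM in niacin-treated libraries. All 3 groups overlapped, and the log2 fold changes were 0.17, 0.02 and 0.19 (SE 0.15 or less each). Per kilobase of exon, the ratio of *Slc38a4* to *Slc38a2* was 0.0837 to 0.104 in WT control, 0.0490 to 0.0767 in *Mtmr2* KO and 0.102 to 0.135 in niacin-treated libraries. All 4 *Mtmr2* KO ratios were below those of both other groups, and the ratios of WT control and niacin-treated libraries overlapped.

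*Slc7a5* and *Slc3a2* encode the light and the heavy chain of the exchanger of leucine and other large neutral amino acids. Both had their lowest means in niacin-treated *Mtmr2* KO nerves and varied widely among the *Mtmr2* KO libraries. *Slc7a5* was at 125, 132, 112 and 101 CPM in WT control, 192, 62.9, 426 and 143 CPM in *Mtmr2* KO and 52.3, 82.3, 58.3 and 49.8 CPM in niacin-treated libraries. Every niacin-treated library lay below every WT control library, while the *Mtmr2* KO range covered the whole WT control range and overlapped the niacin-treated range through library 4502.

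For *Slc7a5* the log2 fold change was 0.81 (SE 0.40) for *Mtmr2* KO against WT control, −1.76 (SE 0.41) for niacin-treated *Mtmr2* KO against *Mtmr2* KO and −0.95 (SE 0.40) for niacin-treated *Mtmr2* KO against WT control. Library 4503 set much of the first value, which was 0.17 without it, and the second was −1.13 without it. Without 4506 and 4507 the third was −1.23. The reads behind *Slc7a5* numbered 1069 to 13304 per library.

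*Slc3a2* followed the same order of libraries within *Mtmr2* KO, with 285, 162, 530 and 272 CPM, beside 270, 245, 262 and 221 CPM in WT control and 168, 208, 133 and 117 CPM in niacin-treated libraries. Niacin-treated libraries were again all below WT control. The log2 fold changes of *Slc3a2* were 0.32 (SE 0.29), −0.999 (SE 0.29) and −0.68 (SE 0.29) in the same order of comparisons. Without library 4503 the first was −0.06 and the second −0.62, so the direction of *Slc3a2* in *Mtmr2* KO against WT control turned with that library.

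Per kilobase of exon, *Slc7a5* stood at 0.408 to 0.514 of *Slc3a2* in WT control, 0.370 to 0.765 in *Mtmr2* KO and 0.297 to 0.418 in niacin-treated libraries. The ratio overlapped between all groups, and within *Mtmr2* KO it was highest in 4503 and lowest in 4502, as were both genes. The summed level of 7 endothelial genes had the same order in *Mtmr2* KO, 626 CPM in 4503, 461 CPM in 4501, 318 CPM in 4504 and 221 CPM in 4502. It was 505 to 563 CPM in WT control and 246 to 389 CPM in niacin-treated libraries, and none of the 7 was at 0 in any library. All 7 had a lower fitted level in *Mtmr2* KO than in WT control (median log2 fold change −0.35). *Slc7a5* and *Slc3a2* went the other way, at 0.81 and 0.32, or 0.17 and −0.06 without 4503. In niacin-treated *Mtmr2* KO against *Mtmr2* KO, 5 of the 7 were lower and 2 higher (median −0.23). In niacin-treated against WT control nerves, 4 of these 7 genes did not overlap, beside 31.4% of all genes tested, and edgeR called 0 of the 7 (5 at an unadjusted p under 0.05). DESeq2 on all libraries called 3, beside 7.38% of all genes, limma-voom 5, beside 42.4%, and edgeR on the 8 libraries compared 6, beside 33.9%. The part of endothelial RNA in the *Slc7a5* and *Slc3a2* levels was not tested.

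**Figure D2:**
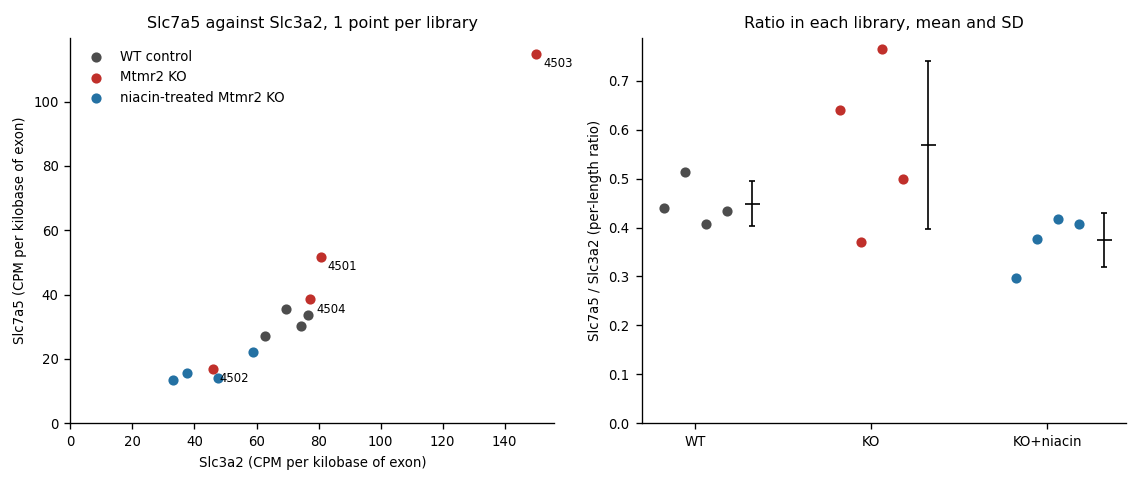
Left, level of Slc7a5 against Slc3a2 in CPM per kilobase of exon, 1 point per library, with the Mtmr2 KO libraries named. Right, the ratio of these levels in each library with mean and SD. Both genes run together from the niacin-treated libraries at the lower left to Mtmr2 KO 4503 at the upper right, and the ratio overlaps between the 3 groups, at 0.408 to 0.514 in WT control.

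*Slc7a1* (CAT1) brings arginine and lysine into most cells. Its levels were 28.0, 31.7, 29.9 and 24.9 CPM in WT control, 34.3, 12.002, 45.2 and 28.6 CPM in *Mtmr2* KO and 18.7, 24.6, 18.4 and 13.9 CPM in niacin-treated libraries. Niacin-treated libraries lay below WT control without overlap, with a log2 fold change of −0.60 (SE 0.30), and *Mtmr2* KO libraries overlapped both other groups. Against *Mtmr2* KO the niacin difference was −0.67 (SE 0.30) and −0.40 without library 4503. *Mtmr2* KO differed from WT control by 0.07 (SE 0.29) on the log2 scale, and by −0.20 without that library. As with *Slc7a5* and *Slc3a2*, *Mtmr2* KO 4503 was the highest library and 4502 the lowest.

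*Slc7a10*, the exchanger of alanine, serine, cysteine and D-serine, is also known as a surface protein of white adipocytes. It was lowest in *Mtmr2* KO nerves, at 11.9, 8.46, 7.97 and 2.45 CPM, against 21.6, 22.9, 17.4 and 16.4 CPM in WT control, and the groups did not overlap. In niacin-treated libraries it was 6.75, 16.7, 19.7 and 17.4 CPM, so that 3 of 4 lay within the WT control range and library 4505 lay within that of *Mtmr2* KO. The log2 fold changes were −1.34 (SE 0.38) for *Mtmr2* KO against WT control, 0.97 (SE 0.38) for niacin-treated *Mtmr2* KO against *Mtmr2* KO and −0.37 (SE 0.37) for niacin-treated *Mtmr2* KO against WT control. Without *Mtmr2* KO 4504, where *Slc7a10* had 51 reads, the first was −1.06 and the second 0.68. Without 4506 and 4507 the second was 0.63.

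The summed level of 8 adipocyte genes, none of which was at 0 in any library, was 2596 to 3415 CPM in WT control and 2176 to 4442 CPM in niacin-treated libraries. In *Mtmr2* KO it was 1911 CPM in 4501, 4582 CPM in 4502, 1677 CPM in 4503 and 759 CPM in 4504. *Slc7a10* was lowest in the library with the lowest adipocyte sum and, among niacin-treated libraries, in the library with the lowest sum (4505, 2176 CPM). In *Mtmr2* KO 4502, with the highest adipocyte sum of all 12 libraries, *Slc7a10* was at 8.46 CPM. In that library the adipocyte genes *Plin1* (49.0 CPM, against 157 to 242 CPM in WT control) and *Lep* (12.7 CPM, against 39.5 to 77.6 CPM) were also below all WT control libraries, as in the other 3 *Mtmr2* KO libraries. The rest of the list, *Adipoq*, *Fabp4*, *Cidec*, *Retn*, *Adig* and *Cfd*, went the other way in 4502, above all WT control libraries. Per kilobase of exon, *Cfd* was at 2595 CPM there, against at most 1738 CPM in WT control, and *Adipoq* at 321 against at most 215 CPM. All 8 adipocyte genes had a lower fitted level in *Mtmr2* KO than in WT control (median log2 fold change −0.46) and a higher one in niacin-treated *Mtmr2* KO than in *Mtmr2* KO (median 0.76), the directions of *Slc7a10*. Of the 8 genes, edgeR called *Lep* and *Plin1* lower in *Mtmr2* KO than in WT control (adjusted p = 0.0364 and 0.0448), beside 0.267% of all genes. It called *Lep* higher in niacin-treated than in *Mtmr2* KO (adjusted p = 0.0383), beside 1.43% of all genes. Limma-voom called 3 of the 8 lower and 7 of the 8 higher in these comparisons, beside 0.626% and 11.6% of all genes. EdgeR on only the compared libraries called 0 of the 8 in each (2 at an unadjusted p under 0.05 in each), and 0 of all genes. The part of adipocyte RNA in the *Slc7a10* level was not tested.

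**Figure D3:**
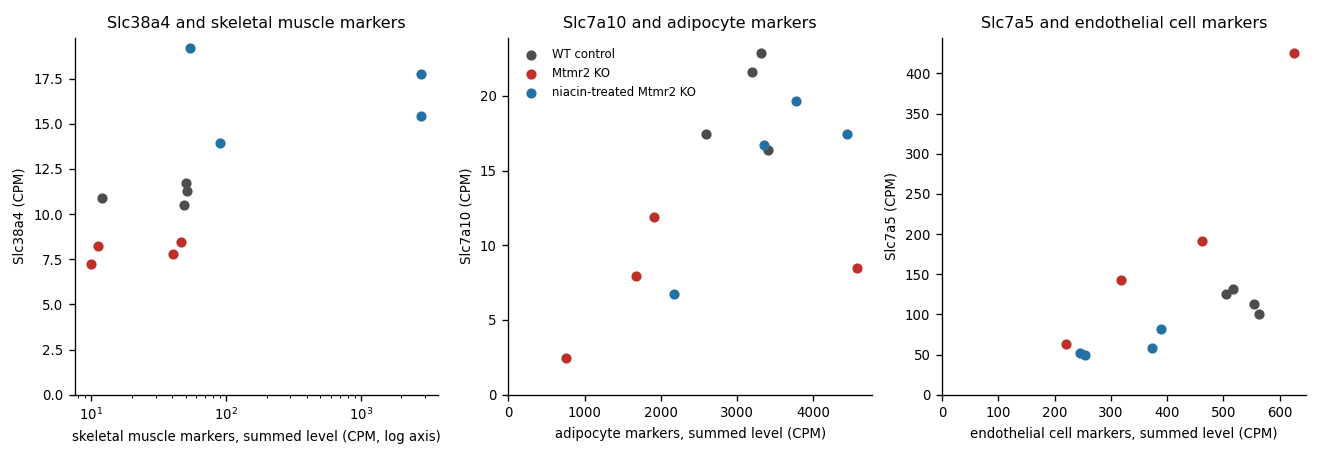
Level of Slc38a4, Slc7a10 and Slc7a5 (CPM) against the summed level (CPM) of 8 skeletal muscle, 8 adipocyte and 7 endothelial genes, respectively, 1 point per library, with a log axis for muscle. Slc38a4 is at 19.2 and 13.9 CPM in the 2 niacin-treated libraries with muscle sums of 54.2 and 90.3 CPM, and the Mtmr2 KO library with an adipocyte sum of 4582 CPM has Slc7a10 at 8.46 CPM.

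*Slc7a11*, the importer of cystine for glutathione, showed no separation of the groups. It was at 16.7, 12.1, 16.2 and 16.7 CPM in WT control, 19.7, 15.0, 7.11 and 18.3 CPM in *Mtmr2* KO and 28.8, 18.1, 21.7 and 16.7 CPM in niacin-treated libraries. Niacin-treated and WT control libraries overlapped only by a narrow margin. Per kilobase of exon, the lowest niacin-treated value was 1.20008 CPM and the highest WT control value 1.20095 CPM. The log2 fold changes were −0.04 (SE 0.27), 0.51 (SE 0.27) and 0.47 (SE 0.27). Library 4503, highest of the *Mtmr2* KO libraries for *Slc7a5*, *Slc3a2* and *Slc7a1*, was the lowest for *Slc7a11*, and without it the first difference was 0.19 and the second 0.27. Relative to the heavy chain *Slc3a2*, per kilobase of exon, *Slc7a11* was at 0.0125 to 0.0192 in WT control and 0.0221 to 0.0435 in niacin-treated libraries, which did not overlap, and at 0.00340 to 0.0234 in *Mtmr2* KO.

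*Slc1a4* (ASCT1) and *Slc1a5* (ASCT2) exchange small neutral amino acids such as serine, alanine and, for *Slc1a5*, glutamine. *Slc1a4* was at 12.2, 11.4, 13.8 and 11.5 CPM in WT control, 16.9, 6.63, 9.67 and 12.1 CPM in *Mtmr2* KO and 10.5, 9.27, 8.21 and 7.03 CPM in niacin-treated libraries. Niacin-treated libraries lay below WT control without overlap (log2 fold change −0.48, SE 0.23), and the *Mtmr2* KO libraries overlapped both, with −0.11 (SE 0.23) against WT control. Niacin-treated *Mtmr2* KO against *Mtmr2* KO differed by −0.38 (SE 0.23) for *Slc1a4*, and by −0.11 without *Mtmr2* KO 4501 and −0.57 without 4502. Against WT control, the *Mtmr2* KO difference was −0.37 without 4501 and 0.07 without 4502.

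*Slc1a5* was at 319, 384, 277 and 257 CPM in WT control, 275, 130, 264 and 152 CPM in *Mtmr2* KO and 151, 308, 214 and 256 CPM in niacin-treated libraries. Its groups overlapped in all comparisons, with log2 fold changes of −0.59 (SE 0.27), 0.18 (SE 0.27) and −0.41 (SE 0.27). Without library 4503 the first was −0.74 and the second 0.32, and the second turned to −0.0059 without 4502 and −0.0079 without 4506. Without 4506 and 4507 together the third was −0.64. Per kilobase of exon it stood at 2.19 to 2.58 times *Slc7a5* in WT control, 0.551 to 1.83 times in *Mtmr2* KO and 2.56 to 4.56 times in niacin-treated libraries. The ratio was thus below WT control in all 4 *Mtmr2* KO libraries, while neither gene alone was separate between these groups.

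Between genes, levels can be compared only per length. In WT control, *Slc1a5* (74.1 ± 13.5 CPM per kilobase of exon) and *Slc3a2* (70.7 ± 6.13) led, followed by *Slc7a5* (31.7 ± 3.70) and *Slc38a2* (27.9 ± 1.79), *Slc7a10* (9.27 ± 1.49), *Slc1a4* (3.11 ± 0.287), *Slc38a4* (2.61 ± 0.117) and *Slc7a1* (2.48 ± 0.253), *Slc7a11* (1.11 ± 0.162) and *Slc38a1* (0.257 ± 0.0167; SD, n = 4 each). Of the neighbours in this order, the libraries of *Slc1a5* and *Slc3a2*, of *Slc7a5* and *Slc38a2*, and of *Slc38a4* and *Slc7a1* overlapped, and the other neighbours did not.

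In *Mtmr2* KO the order was *Slc3a2* (88.5 ± 44.0 CPM per kilobase), *Slc7a5*, *Slc1a5*, *Slc38a2*, *Slc7a10*, *Slc1a4*, *Slc7a1*, *Slc38a4* (1.86 ± 0.127), *Slc7a11* and *Slc38a1*. There the first 4 overlapped with their neighbours, as did *Slc7a10*, *Slc1a4*, *Slc7a1* and *Slc38a4*. In niacin-treated libraries *Slc38a4* (3.89 ± 0.549) stood above *Slc1a4* (2.23 ± 0.374) without overlap, while in WT control it stood below *Slc1a4*. *Slc7a5* (16.4 ± 3.999) stood below *Slc38a2* (31.7 ± 3.78) in the niacin-treated order, again without overlap, while in WT control their libraries overlapped.

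The members also differed in how much they varied among mice of 1 group. In *Mtmr2* KO the highest library exceeded the lowest 6.77-fold for *Slc7a5*, 4.86-fold for *Slc7a10*, 3.77-fold for *Slc7a1* and 3.28-fold for *Slc3a2*, against 1.17-fold for *Slc38a4* and 1.13-fold for *Slc38a1*. For *Slc7a5*, *Slc7a1* and *Slc3a2* the highest library was 4503, whose *Mtmr2* level lay in the WT control range, and these ratios were not computed without it. In WT control the same ratio was 1.11 to 1.496 over the 10 members. Library 4502 was the lowest *Mtmr2* KO library for 6 of the 10 members, and 4508 the lowest niacin-treated library for 7. The wide spread was shared with other genes, as the median SD of the log2 level over all 17257 genes was 0.16, 0.40 and 0.22 in the same order of groups (WT control, *Mtmr2* KO, niacin-treated).

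For *Mtmr2* KO against WT control, a question of what loss of *Mtmr2* changes in nerve, 3 of the 10 members did not overlap between the groups (*Slc38a4*, *Slc38a1* and *Slc7a10*, all lower in *Mtmr2* KO), beside 9.32% of all genes tested. The quasi-likelihood test of edgeR on the 12 libraries, with calls where the Benjamini-Hochberg adjusted p was under 0.05, called 0 of the 10, beside 0.267% of all genes tested. At an unadjusted p under 0.05 there were 4, DESeq2 on all libraries called 2, beside 3.47% of all genes, and limma-voom called 0. The median log2 fold change of the members was −0.07, beside 0.03 over all genes tested.

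For niacin-treated *Mtmr2* KO against *Mtmr2* KO, the comparison on what niacin changes in the mutant nerve, 1 of the 10 members did not overlap (*Slc38a4*, higher), beside 7.01% of all genes tested, and 1 was called (*Slc38a4*), beside 1.43%. DESeq2 on all libraries called 3 members, beside 5.88% of all genes, and limma-voom 4, beside 11.6%. The call of *Slc38a4* was lost without any of 4497, 4499, 4500, 4506 and 4507 (0 members called each). In each of these fits edgeR called 0 of all genes. Without 4502 edgeR called 5 members, beside 23.6% of all genes, and without 4504 it called 2, beside 2.87%. With 4506 and 4507 both left out, edgeR called 0 members and 0 of all genes. The median log2 fold change of the members was 0.10, beside −0.04 over all genes tested.

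For niacin-treated *Mtmr2* KO against WT control, 5 of the 10 members did not overlap, beside 31.4% of all genes tested. *Slc38a4* was higher and *Slc7a1*, *Slc7a5*, *Slc3a2* and *Slc1a4* were lower in the niacin-treated libraries. EdgeR over all 12 libraries called 0 of the 10 members, as it called 0 of 17257 genes (0%), with 3 members and 4254 genes at an unadjusted p under 0.05. In that fit the wide spread of the *Mtmr2* KO libraries enters the error of all 3 comparisons. Fitted on the 8 libraries compared, edgeR called 6 of the 10 members (the 5 above and *Slc7a11*, higher), beside 33.9% of all genes tested. DESeq2 on the 8 libraries and limma-voom called the same 6 members, beside 33.9% and 42.4% of all genes, and DESeq2 on all 12 libraries called 1, beside 7.38%. The median log2 fold change of the members was −0.39, beside 0.02 over all genes tested.

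The 3 comparisons share libraries, each group standing in 2 of them, so the values of 1 comparison are not independent of those of another. Since the members were chosen with these results known, nothing beyond the values is read from the counts of members.

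**Figure D4:**
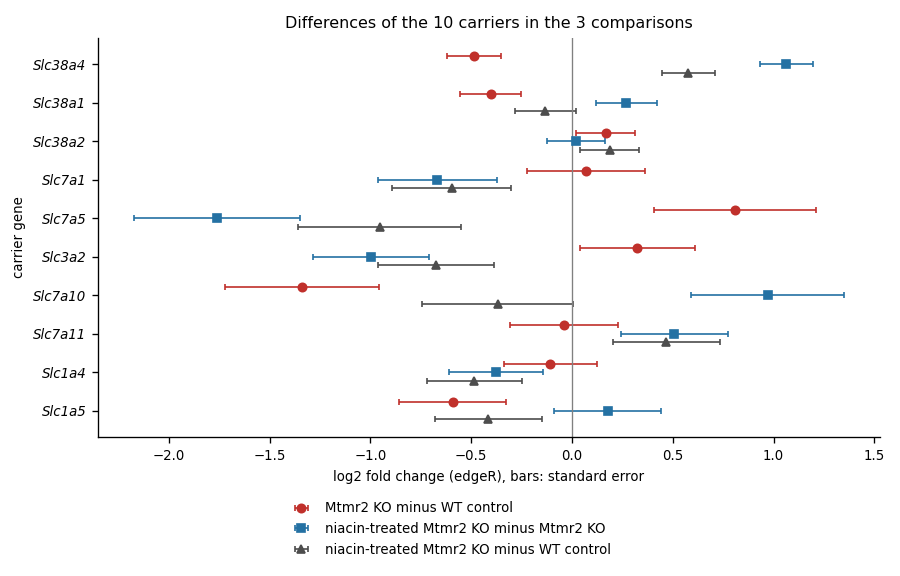
Log2 fold change of the 10 carriers in the 3 comparisons (horizontal axis, edgeR over all 12 libraries), with standard errors as bars. Slc38a4 stands at −0.49, 1.06 and 0.58, while Slc7a5 stands at 0.81, −1.76 and −0.95 in the same order and has the widest bars.

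Other carriers of amino acids in the plasma membrane were listed by function for comparison, 34 genes of which 23 were tested. The most abundant per length were *Slc36a2*, *Slc7a2* and *Slc6a6*. For niacin-treated *Mtmr2* KO against *Mtmr2* KO, edgeR called 1 of the 23, beside 1.43% of all genes. It was *Slc7a2* (CAT2), a carrier of arginine and lysine like *Slc7a1*. *Slc7a2* was at 322, 406, 330 and 231 CPM in WT control, 648, 433, 1385 and 382 CPM in *Mtmr2* KO and 179, 297, 151 and 198 CPM in niacin-treated libraries. The niacin-treated group lay below *Mtmr2* KO without overlap, and edgeR gave −1.79 on the log2 scale with an SE of 0.37 and an adjusted p of 0.0425. Over 20 alternatives the adjusted p of *Slc7a2* ranged from 9.24e-05 to 0.276 and passed in 8. The call was lost without any 1 of the libraries other than 4502 and 4504, among them 4503 (log2 fold change −1.24). Of these fits, those without 4497, 4499, 4500, 4506 or 4507 called 0 of all genes.

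In *Mtmr2* KO against WT control, edgeR called 0 of the 23 other carriers (4 at an unadjusted p under 0.05, 3 called by DESeq2 on all libraries, beside 3.47% of all genes, and 0 by limma-voom). *Slc16a10*, a carrier of aromatic amino acids, and *Slc6a6*, the taurine carrier, were the 2 of 23 whose groups did not overlap (8.70%, beside 9.32% of all genes). Their levels were 3.18 ± 0.936 CPM in *Mtmr2* KO against 6.60 ± 0.734 CPM in WT control for *Slc16a10* (adjusted p = 0.0744), and 98.3 ± 22.4 against 163 ± 27.1 CPM for *Slc6a6* (adjusted p = 0.0935; SD, n = 4 each). In niacin-treated *Mtmr2* KO against WT control, edgeR over all libraries called 0 of 23 (4 at an unadjusted p under 0.05, 0 called by DESeq2 on all libraries), and limma-voom called 6, beside 42.4% of all genes. Fitted on the 8 libraries compared, edgeR called 5 of 23, a smaller share than the 33.9% of all genes, with *Slc7a2*, *Slc7a8*, *Slc16a10* and *Slc43a2* lower and *Slc6a7* higher.

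Around the carriers, 3 further lists held 0 calls by edgeR in all 3 comparisons. Of 13 lysosomal and other intracellular carriers tested, 2, 4 and 3 were at an unadjusted p under 0.05 in *Mtmr2* KO against WT control, niacin-treated *Mtmr2* KO against *Mtmr2* KO and niacin-treated *Mtmr2* KO against WT control. DESeq2 on all libraries called 1 in each, beside 3.47%, 5.88% and 7.38% of all genes. *Ctns*, the lysosomal cystine exporter, was at 60.8 ± 4.64 CPM in WT control, 84.0 ± 11.1 CPM in *Mtmr2* KO and 63.2 ± 2.71 CPM in niacin-treated libraries (SD, n = 4 each). Limma-voom called 4 of the list in niacin-treated *Mtmr2* KO against *Mtmr2* KO, beside 11.6% of all genes.

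The 16 genes of the amino acid response, which ATF4 switches on together with several of the members when amino acids are short, had 4, 5 and 4 at an unadjusted p under 0.05. DESeq2 on all libraries called 0, 1 and 3 of them, beside 3.47%, 5.88% and 7.38% of all genes, and limma-voom called 0, 4 and 8, beside 0.626%, 11.6% and 42.4%. *Atf4* itself was at 109 ± 10.02 CPM in WT control, 109 ± 26.7 CPM in *Mtmr2* KO and 108 ± 4.31 CPM in niacin-treated libraries. *Asns*, the asparagine synthetase, was at 41.5, 37.8, 43.6 and 51.9 CPM in niacin-treated libraries, above the 27.1 to 35.0 CPM of WT control, whereas *Trib3* was at 1.41 to 2.55 CPM, below the 3.70 to 4.13 CPM of WT control. EdgeR over all 12 libraries called neither gene in that comparison, while edgeR on the 8 libraries compared called 6 of the 16, *Asns* and *Trib3* among them, a share close to the 33.9% of all genes.

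Of 13 genes of amino acid and glutathione metabolism, 2, 4 and 1 were at an unadjusted p under 0.05, DESeq2 on all libraries called 1 in each comparison, and limma-voom called 0, 2 and 4, beside the same shares of all genes.

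*Slc38a4* is imprinted, and 15 symbols of imprinted growth genes were listed beside it. Of these, 14 were found in the count table, and all 14 were tested. In *Mtmr2* KO against WT control edgeR called 1 of the 14, beside 0.267% of all genes. It was *Nnat*, lower (12.2 ± 4.83 against 57.2 ± 27.3 CPM, log2 fold change −2.24, SE 0.41, adjusted p = 0.0448). The median of the 14 was −0.36, beside 0.03 over all genes. In niacin-treated *Mtmr2* KO against *Mtmr2* KO edgeR called 3, beside 1.43% of all genes. *Grb10*, a growth inhibitor, was higher (102 ± 4.85 against 70.5 ± 3.21 CPM, log2 fold change 0.54, SE 0.10, adjusted p = 0.0401), as was *Plagl1*, a regulator of imprinted genes (34.1 ± 1.28 against 24.4 ± 2.22 CPM, adjusted p = 0.0491). *Peg10*, a retrotransposon-derived gene, was lower (5.43 ± 0.445 against 10.2 ± 3.49 CPM, adjusted p = 0.0467; SD, n = 4 each).

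Over the 20 alternatives *Nnat* was called in 10, *Grb10* in 7, *Plagl1* in 5 and *Peg10* in 8, with adjusted p of up to 0.130, 0.284, 0.306 and 0.284. In both comparisons edgeR called 0 of all genes, so that none could pass, on the compared libraries and without 4497, 4499, 4500 or 4507. The same held without 4498 or 4508 for the comparison of *Nnat*, and without 4506, alone or with 4507, for that of the others. The order of the groups in *Grb10* was that of *Slc38a4*, with niacin-treated libraries (98.1 to 108 CPM) above WT control (82.6 to 97.8 CPM) and *Mtmr2* KO libraries (65.7 to 72.8 CPM) below it. In niacin-treated *Mtmr2* KO against WT control edgeR called 0 of the 14 (6 at an unadjusted p under 0.05). DESeq2 on all libraries called 1, beside 7.38% of all genes, and limma-voom 7, beside 42.4%.

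The genes closest to *Slc38a4* were sought among all 17257, by the root mean square difference of log2 CPM after each gene was centred on its mean of the 12 libraries. The 6 closest were *Glt8d2*, *Lmntd1*, *Xpnpep2*, *Cmbl*, *Tlcd2* and *Colec12*, at differences of 0.18 to 0.21, beside a median of 0.56 over all genes. *Xpnpep2*, a membrane aminopeptidase that cleaves peptides at proline, was at 12.96 to 16.1 CPM in WT control, 8.03 to 12.7 CPM in *Mtmr2* KO and 14.5 to 24.4 CPM in niacin-treated libraries. *Colec12*, a scavenger receptor, was at 91.2 to 107 CPM, 66.5 to 91.1 CPM and 109 to 150 CPM in the same order. When each gene was centred on the mean of its group, so that only the spread among mice of 1 group counted, the 6 closest were others (*Cdk19*, *Zfp9*, *Ap4s1*, *Aggf1*, *Nrd1* and *Hdac1*), with 0 shared.

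**Figure D5:**
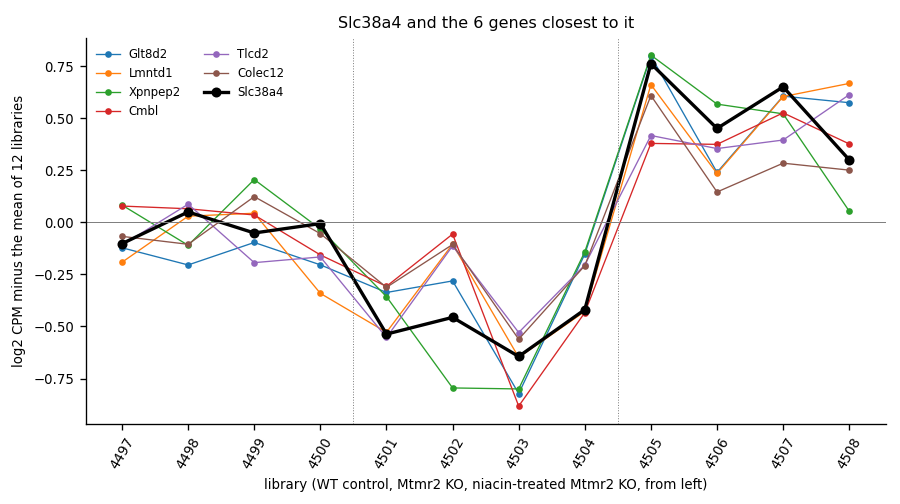
Log2 CPM minus the mean of 12 libraries for Slc38a4 (black) and the 6 genes closest to it, by library, with dotted lines between the 3 groups. All 7 genes lie lowest on average in the Mtmr2 KO libraries 4501 to 4504 and highest in the niacin-treated libraries 4505 to 4508. The 6 genes were chosen for closeness to Slc38a4 over these libraries, so the shared order follows largely from the choice.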

How the data were processed

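Total RNA of sciatic nerve was selected for polyA and read on an Illumina HiSeq. The authors mapped the reads with STAR to GRCm38 and deposited whole-number counts per Ensembl gene for 12 libraries, without normalization. The submitters' processing notes also name CASAVA 1.9. The sources used here do not name the program that counted reads, its strand setting, the gene annotation or the version of STAR. The deposited DESeq2 tables of the authors hold log2 fold changes and p-values, of which only the symbol column was used. 0 columns of per-sample values and 0 rows without a gene identifier were left out.

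Low genes were dropped with filterByExpr of edgeR over the 3 groups, and the rest were scaled by TMM and fitted in 1 quasi-likelihood model over 12 libraries (R 4.3.3, edgeR 4.0.16), two-sided, with Benjamini-Hochberg adjustment over the 17257 genes tested. An SE is the log2 fold change divided by the root of the F statistic. CPM used TMM factors, log2 levels a prior count of 2, and per-length levels the merged exons of GENCODE M21. Groups were taken not to overlap where the lowest library of one exceeded the highest of the other. Levels per library cover counting error and differences between mice together.

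The members, gene lists and the rule for named genes were chosen with earlier results of these data known. The rule named all members, called genes and the 3 most abundant genes of the other carrier, intracellular carrier, amino acid response, metabolism and imprinted lists, the 2 most abundant genes of the marker lists, the 6 genes closest to *Slc38a4*, and *Mtmr2*. Of these, genes on which no result of the members turns are not all printed. *Lep*, *Plin1*, *Slc16a10*, *Slc43a2*, *Slc6a7*, *Slc7a8*, *Atf4*, *Asns* and *Trib3* were named after their values were seen.

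Alternatives were DESeq2 1.42.0 and edgeR on all or only the compared libraries, limma-voom (limma 3.58.1) with sample quality weights, DESeq2 size factors, library totals without TMM, no filter, at least 10 counts in every library, and each library left out. Leaving out 4506 and 4507 together was chosen after seeing the data. The fits were tested on simulated data.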

Additional observations from a re-analysis of the deposited data

Results flagged for a closer look

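In groups of 4, a library was marked when its gap to the nearest other library made up more of the group's whole range than Dixon's 95% critical value for 4 values, which chance does in about 1 of 20 groups. Of 75 sets of 4 values examined (20 genes, 4 marker sums and 1 ratio in 3 groups), 4 were marked, close to that rate. *Slc7a11* in WT control 4498 was 12.1 CPM, against 16.2 to 16.7 CPM in the other 3. *Slc36a2*, a carrier of proline and glycine, was 507 CPM in the library labelled *Mtmr2* KO 4503, against 301 to 331 CPM in the other 3. The skeletal muscle sum of WT control 4499 was 12.04 CPM, against 48.9 to 51.5 CPM. The neutrophil sum (7 genes) of niacin-treated 4508 was 11.3 CPM, against 1.14 to 1.39 CPM in the other 3 niacin-treated libraries, 1.63 to 17.96 CPM in *Mtmr2* KO and 0.580 to 1.33 CPM in WT control. *Slc38a4*, *Slc38a1*, *Slc38a2*, *Slc7a1*, *Slc7a5*, *Slc3a2*, *Slc7a10*, *Slc1a4* and *Slc1a5* had no marked library in any group.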

How the results depend on the processing

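The log2 fold changes of the members were sorted by size alone, and those of the other genes followed singly by their side of the threshold. Of both together, 0 called values changed sign and 1040 stayed, by less than the spread or on their side. Of the other genes, 37 values passed newly and 62 no longer passed. Of the members, 1 moved (*Slc7a5*, niacin-treated *Mtmr2* KO against WT control, −1.23 without 4506 and 4507). Calls that members gained or lost are not counted in this sorting. *Slc38a4*, called for niacin-treated *Mtmr2* KO against *Mtmr2* KO, passed in 13 of the 20 alternatives. The alternatives in which it did not pass were edgeR fits that called 0 of all genes. Uncalled values near 0 changed sign in some alternatives, as in *Mtmr2* KO against WT control for *Slc7a1* and *Slc7a11* (18 of 20 with the reported sign) and *Slc3a2* (19 of 20), and in niacin-treated *Mtmr2* KO against *Mtmr2* KO for *Slc38a2* (14 of 20) and *Slc1a5* (17 of 20). Counts of calls depended on the test. Among the 10 members, *Mtmr2* KO against WT control gave 2 with DESeq2 on all or only the compared libraries and 1 with no filter, against 0 in the reported fit, and 0 without any 1 library. Niacin-treated *Mtmr2* KO against *Mtmr2* KO gave 1, against 3 with DESeq2 on all libraries, 2 with DESeq2 on the compared libraries, with DESeq2 size factors or with no filter, 4 with limma-voom, and 0 with edgeR on the compared libraries or without 4506 and 4507. Leaving out 1 library gave 0 to 5, with 5 without 4502, beside 23.6% of all genes. Niacin-treated *Mtmr2* KO against WT control gave 0, against 1 with DESeq2 on all libraries and 6 with DESeq2 or edgeR on the compared libraries or limma-voom. Without 1 library it gave 0 to 4, with 4 without 4502, beside 21.6% of all genes, and 1 without 4503, beside 1.74%.

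Among the 23 other carriers tested, the same comparisons gave 0, 1 and 0. The first became 3 with DESeq2 on all libraries, 2 with DESeq2 on the compared libraries and 1 with no filter, and 0 to 3 without 1 library (3 without 4501). The second became 2 with either DESeq2 fit or no filter, 3 with limma-voom, 0 with edgeR on the compared libraries or without 4506 and 4507, and 0 to 3 without 1 library (3 without 4502). The third became 6 with DESeq2 on the compared libraries or limma-voom, 5 with edgeR on them, and 0 to 2 without 1 library (2 without 4502). Over all genes, edgeR called 46, 246 and 0, DESeq2 on all libraries 659, 1039 and 1067, DESeq2 on the compared libraries 432, 444 and 5710, limma-voom 108, 2007 and 7311, edgeR on the compared libraries 0, 0 and 5586, and edgeR with no filter 341, 573 and 311. Without 1 library edgeR called 0 to 457, 0 to 4180 and 0 to 3826. The highest of these were 2.6% of all genes without 4501, 23.6% without 4502 and 21.6% without 4502, respectively. The cause was not tested. The 6 genes closest to *Slc38a4* shared 0 with those found after centring on group means. No paired analysis was possible because the groups share no replicate numbers. With 4 mice a group, 51 to 176 reads behind the lowest values of *Slc7a10*, *Slc38a1* and *Slc38a4* limit their precision.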

Other observations

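Summed levels of the marker genes of other cell types are given as values, in WT control, *Mtmr2* KO and niacin-treated libraries in that order. Non-myelinating Schwann cell genes (6) summed to 438 to 543, 575 to 882 and 519 to 737 CPM. Perineurial genes (6) summed to 1022 to 1410, 1101 to 1514 and 820 to 1111 CPM, and fibroblast genes (7) to 11522 to 17467, 8015 to 12429 and 10953 to 18839 CPM. Macrophage genes (7) summed to 345 to 405, 310 to 625 and 414 to 628 CPM. Red blood cell genes (6) summed to 292 to 1081, 189 to 809 and 238 to 1052 CPM, and vascular smooth muscle genes (7) to 1000 to 1607, 918 to 1760 and 836 to 1339 CPM. Of the 7 skeletal muscle genes tested, edgeR called 5 higher in niacin-treated than in *Mtmr2* KO, beside 1.43% of all genes. Without 4506 and 4507 it called 0 of them, as it called 0 of all genes.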
